A study of Canis lupus familiaris with 2 samples.

Results

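Described here are the red-cell miRNAs of dog serum, taken as the dog miRNAs named miR-144, miR-185, miR-451 or miR-486 by their number. Of the 291 dog miRNAs on the chip, 3 met that rule, namely cfa-miR-451, cfa-miR-144 and cfa-miR-185, and miR-486 was not analysed here. Serum was taken at 2 months of age from male dogs of the canine X-linked muscular dystrophy colony in Japan (CXMDJ), a dog model of Duchenne muscular dystrophy in which dystrophin is lost. The normal group was 1 pool of serum from 3 normal male dogs of that colony, and the dystrophic group was 1 pool of serum from 3 affected dogs. RNA from each pool was put on 1 one-color 3D-Gene chip after labelling, on which each spot is read by its brightness at 1 wavelength. With 1 array per group there was no replicate error between dogs, and no test between the groups could be made. A pool also cannot show whether all 3 dogs or only 1 of them set its level.

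A red blood cell loses its nucleus as it matures, and the small RNAs it made earlier stay behind in large amounts. The genes of miR-144 and miR-451 form 1 cluster that is switched on by the erythroid transcription factor GATA1 and is read as a single transcript. miR-451 is cut by Argonaute 2 and not by Dicer, so the amounts of miR-144 and miR-451 can differ although both come from the same transcript. miR-185 and miR-486 are also plentiful in red cells. miR-486 lies in the gene of erythrocyte ankyrin and is made in muscle too. Red cells that break during blood drawing release these miRNAs into serum, so miR-451 is widely read together with miR-23a, which red cells hold little of, as a check on haemolysis.

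Gene order was read from RefSeq on the assembly UU_Cfam_GSD_1.0, without coordinates. MIR451 and MIR144 lay next to each other with no other gene between them. Their outer neighbors were ERAL1 and FLOT2. MIR185 overlapped the protein-coding gene TANGO2, and MIR486 overlapped ANK1. All 3 members matched a gene by name.

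Each array held 3200 spots, among them 1 for each dog miRNA, 1408 blank spots, 181 spots named as without a probe and 32 negative-control spots. The mean of the blank spots was taken after leaving out 5% at each end and was 118 units for the normal array and 116 for the dystrophic one. Detection required a spot brighter than this mean by 2 SD, a limit of 126 and 124 scanner units. The spots without a probe were above this limit in 26.5% of cases on the normal array and 23.8% on the dystrophic one, so a spot just past the limit cannot be told apart from a spot without a probe. Net signals, the spot intensity minus the blank mean, were multiplied per array so that its detected dog miRNAs had a median of 25, which gives the normalized signal.

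cfa-miR-451 was far brighter than the blank spots of both arrays, and its spot was dimmer for dystrophic serum. On the normal array the area around the spot was brighter still, as described after the members. Its spot read 1345 scanner units on the normal array and 418 on the dystrophic array. The net signals were 1227 and 302, and the normalized signals 1276 and 250.0. No blank, empty or negative-control spot of either array was as bright. The ratio of dystrophic to normal serum was 0.196, or 5.10-fold lower. Its 95% interval ran from 0.168 to 0.228. This interval was computed from the spread of the blank spots and a coefficient of variation of 5.26% among the repeated spots of 10 bright control probes. It covers the noise of single spots and leaves out differences between dogs, RNA preparations and arrays. The spot of miR-451 gave 9.79% of the summed net brightness of the detected dog miRNAs on the normal array and 1.38% on the dystrophic array, a sum that holds far more muscle miRNA on the latter.

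cfa-miR-144, the partner of miR-451 in the cluster, was not detected in either serum. Its spot read 119 units on the normal array and 122 on the dystrophic one, both under the limit. At least as bright were 37.6% of the blank spots of the normal array and 13.1% of those of the dystrophic array. The same was true of 27 of the 32 negative-control spots on each array. Of all dog miRNAs on the chip, 29.6% were likewise detected in neither serum. No fold change is given for miR-144, and whether it went along with miR-451 was not detectable at this brightness.

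cfa-miR-185 was detected in dystrophic serum alone, close to the limit. Its spot read 120 units on the normal array, -5.96 relative to the limit, and 130 on the dystrophic array, 5.50 above it. The normalized signal in dystrophic serum was 11.4, at least 1.37-fold higher than the dimmest detected dog miRNA of the normal array, which stands in for the undetected side. On the dystrophic array 3.84% of the blank spots, 27 of the 181 spots without a probe and 22 of the 32 negative-control spots were at least as bright. The spot was brighter by 9.61 units on the dystrophic array, and 5.68% of the 1408 blank positions differed by that much or more in the same direction. Detection in dystrophic serum alone was found for 15.8% of the dog miRNAs. At this brightness a difference of miR-185 between the sera was not detectable.

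**Figure D1:**
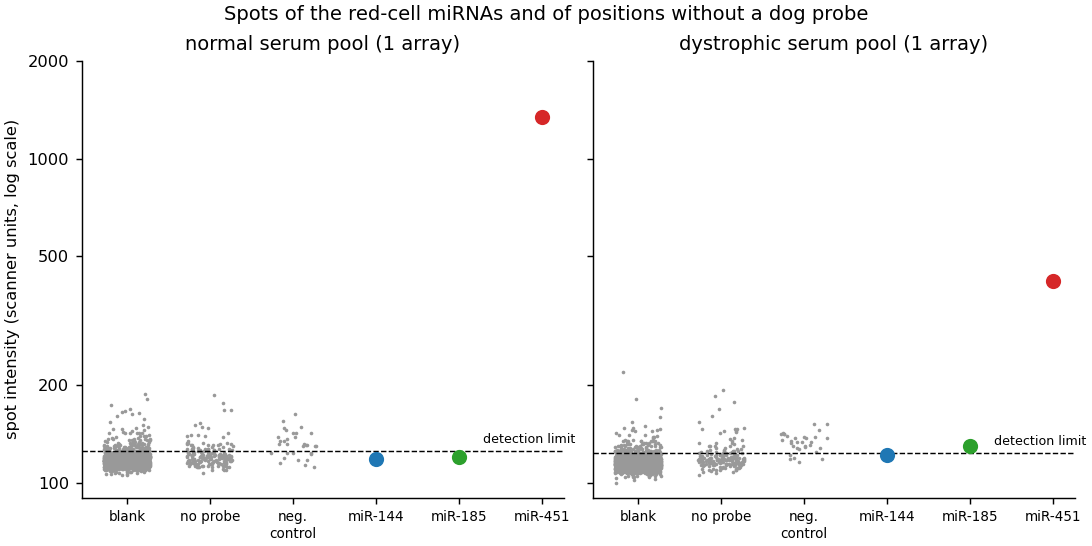
Spot intensity in scanner units on a log scale for the blank, empty and negative-control spots (gray points, 1 per spot) and for miR-144, miR-185 and miR-451 (colored points, 1 spot each), on the normal array at left and the dystrophic array at right, with the detection limit dashed. miR-451 stands at 1345 and 418 units, above every gray point, whereas miR-144 and miR-185 lie among the gray points on both arrays.

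The area around the miR-451 spot was bright as well on the normal array. The scanner output holds a local background for each spot, the median brightness around it. For miR-451 it was 1768 units on the normal array, above the spot itself at 1345, and 193 units on the dystrophic array, under the spot at 418. The local background was above the spot for 8 of the 291 dog miRNAs on the normal array and 6 on the dystrophic one. Among the 9 dog spots of the normal array that read over 3 times the detection limit, miR-451 had the lowest ratio of spot to local background, 0.761, compared with a median of 1.25. The 8 spots next to it had intensities from 115 to 1031 units, with a median of 133, and local backgrounds from 60.6 to 586, with a median of 96.6. On the dystrophic array the intensities of these 8 spots ran from 115 to 1998. The scanner output marked the miR-451 spot as OK at all 3 scanner gains on both arrays. When the local background was subtracted in place of the blank mean, miR-451 had -423 units on the normal array and 225 on the dystrophic array, so the direction turned, with signal in dystrophic serum alone, and no ratio could be formed. Whether the bright surroundings bear on the reading of this spot was not tested.

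**Figure D2:**
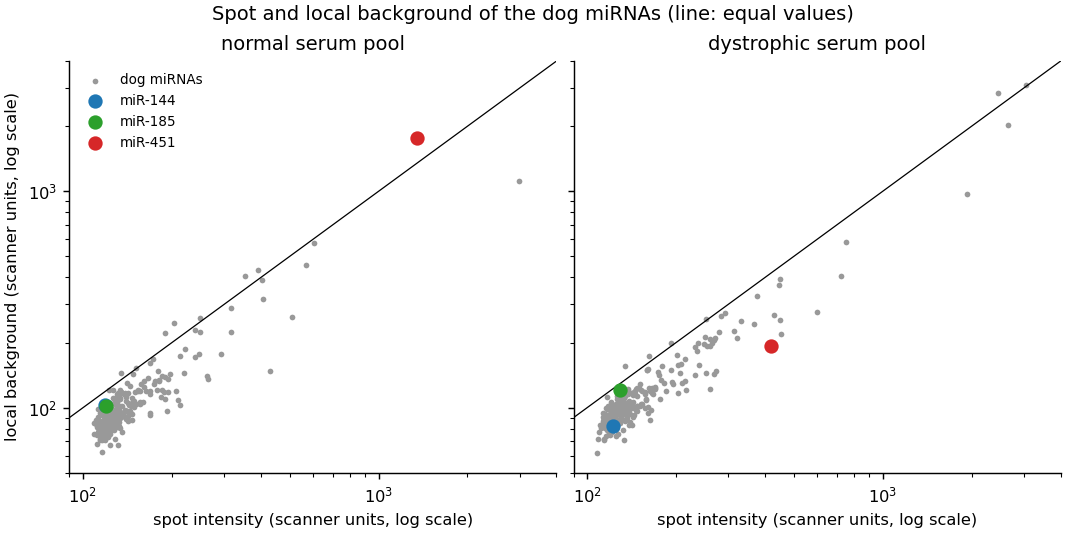
Local background against spot intensity, both in scanner units on log scales, for the 291 dog miRNAs (gray) and the 3 members (colored) on each array, with a line of equal values. miR-451 lies above the line on the normal array (1768 against 1345) and under it on the dystrophic array (193 against 418).

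The local background of the miR-451 spot differed between the arrays in the same direction as the spot, while the averages over its block differed less. The 8 adjacent spots did not share that direction in their median or highest intensity. Their local backgrounds did, with a median of 96.6 units on the normal array and 89.97 on the dystrophic one. The highest of these local backgrounds was 586 and 329 units. The lowest went the other way, at 60.6 units on the normal array and 81.4 on the dystrophic one. The blank spots of the block averaged 119 units on the normal array and 112 on the dystrophic one, with an SD of 6.76 and 3.89 between 44 spots. Among 25 quality-control spots of the block that were above the limit on both arrays, the median dystrophic over normal ratio was 1.14, compared with 1.16 over all 492 such spots of the chip. Of these 25 spots, 1 had a ratio of 0.5 or less, compared with 17 of the 492 (3.46%). Single spots spread widely, from 0.454 to 2.72 in the block and from 0.258 to 99.2 over the chip. What the quality-control spots capture is not named in the sources used here.

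Among the 142 dog miRNAs detected in both sera, miR-451 had the lowest ratio. It was 1 of 8 miRNAs at 0.5 or less, which is 5.63% of those compared. The 5 miRNAs nearest to it in log2 ratio, over the 2 arrays, were miR-16, miR-20a, miR-21, miR-140 and miR-106a. miR-16, which with miR-15a makes up a cluster that restrains cell division, had normalized signals of 182 and 62.7, a ratio of 0.346 (interval 0.273 to 0.437). This interval does not overlap that of miR-451, and the ratio of miR-451 was 0.567 times that of miR-16 (interval 0.429 to 0.750). miR-140, known from cartilage, had signals of 297 and 135 and a ratio of 0.454 (interval 0.382 to 0.539). miR-20a and miR-106a, both of the growth-promoting miR-17 family, had ratios of 0.348 and 0.459. Their sequences are much alike, so their spots can share labelled RNA. miR-21 had a ratio of 0.403, with signals of 22.0 and 8.87 that left an interval from 0.105 to 1.54. Over all 142 miRNAs, with the scaling as reported, the interval lay below 1 for 15, miR-451 among them, and above 1 for 29.

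**Figure D3:**
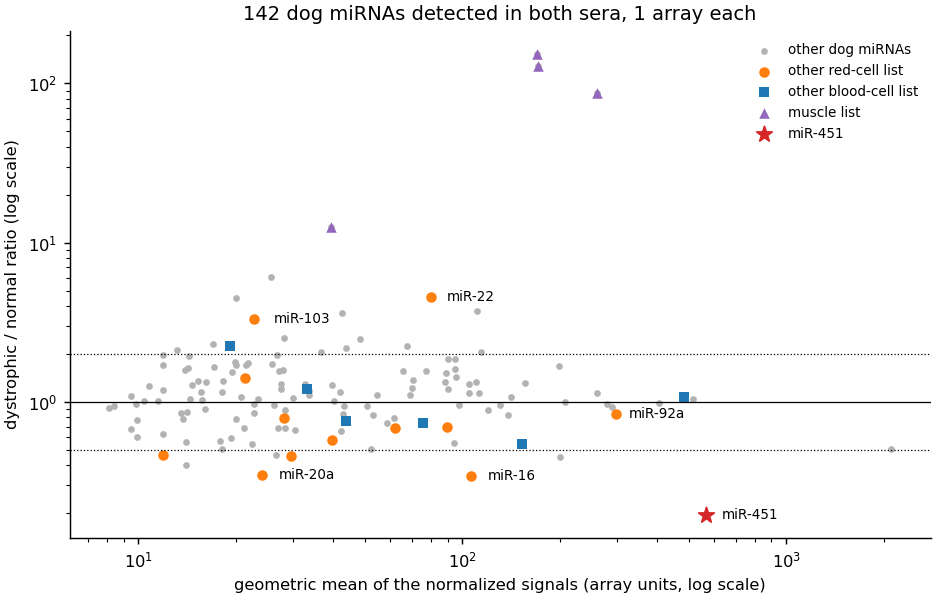
Dystrophic over normal ratio against the geometric mean of both normalized signals, on log scales, for the 142 dog miRNAs detected in both sera, 1 point each, with lines at 0.5, 1 and 2. The star of miR-451 is the lowest point at 0.196, miR-16 and miR-20a lie next at 0.346 and 0.348, and miR-22 and miR-103 are the highest of the other red-cell miRNAs.

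Other miRNAs that are plentiful in red cells mostly had a ratio below 1 as well, but none had as low a ratio as miR-451. The list held 18 miRNAs, all of them on the chip. Of these, 12 were detected in both sera, 2 in normal serum alone (miR-17 and miR-107), 1 in dystrophic serum alone (miR-106b) and 3 in neither. Of the 12, 4 were at 0.5 or less (miR-16, miR-20a, miR-106a and miR-15a), compared with 5.63% of all 142, and 2 were above 2, compared with 13.4%. None of the 4 was left at 0.5 or less without background subtraction or with normexp. The ratio was below 1 for 9 of the 12, compared with 59 of all 142, and without scaling between the arrays for 7 and 35, since miR-92a and miR-19b then lay above 1. The median was 0.692, compared with 1.09 over all 142. The interval, which holds no error of the scaling, lay below 1 for 7 of the 12 and above 1 for 2. Without scaling, 3 of these 7 had ratios nearer to 1 or above it, 0.866 for miR-93, 0.875 for miR-25 and 1.05 for miR-92a. The count of 7 thus holds only for the scaling as reported. The list was written with earlier results of these data known, and its counts are a description.

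The 3 brightest spots of these 12 on the normal array were those of miR-92a, miR-16 and miR-25. miR-92a, of the miR-17 cluster and present in many blood cells, had normalized signals of 325 and 272, a ratio of 0.835 (interval 0.714 to 0.977). Its spot itself read 431 units on the normal array and 444 on the dystrophic one, and its ratio without scaling was 1.05, so this direction rests on the scaling. For miR-25 the signals were 107.3 and 74.7, and the ratio was 0.696 (interval 0.548 to 0.884). The ratio of miR-451 was 0.235 times that of miR-92a and 0.282 times that of miR-25. The intervals of these quotients, for the noise of single spots alone, ran from 0.189 to 0.292 and from 0.212 to 0.374. The wider intervals of miR-20a and miR-15a, from 0.153 and 0.103 upward, overlapped that of miR-451.

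miR-22 and miR-103 ran the other way. The normalized signal of miR-22, which is plentiful in red cells and also in muscle, was 37.4 for the normal pool and 171 for the dystrophic pool, a ratio of 4.57 (interval 3.07 to 6.79). For miR-103, a regulator of insulin signaling, the signals were 12.4 and 41.4, a ratio of 3.33 (interval 1.07 to 10.3). miR-107, which differs from miR-103 by little in sequence, had 14.8 in normal serum and was not detected in dystrophic serum. Its dystrophic spot of 123.3 units lay just under the limit of 124.0. miR-15a was close to the limit on both arrays, with signals of 17.5 and 8.14 and an interval from 0.103 to 2.11. The summed normalized signal of the 12 miRNAs was 942 in normal and 795 in dystrophic serum. Scaling multiplied the net signals by 1.04 on the normal array and 0.827 on the dystrophic one, and the order of these sums rests on it.

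**Figure D4:**
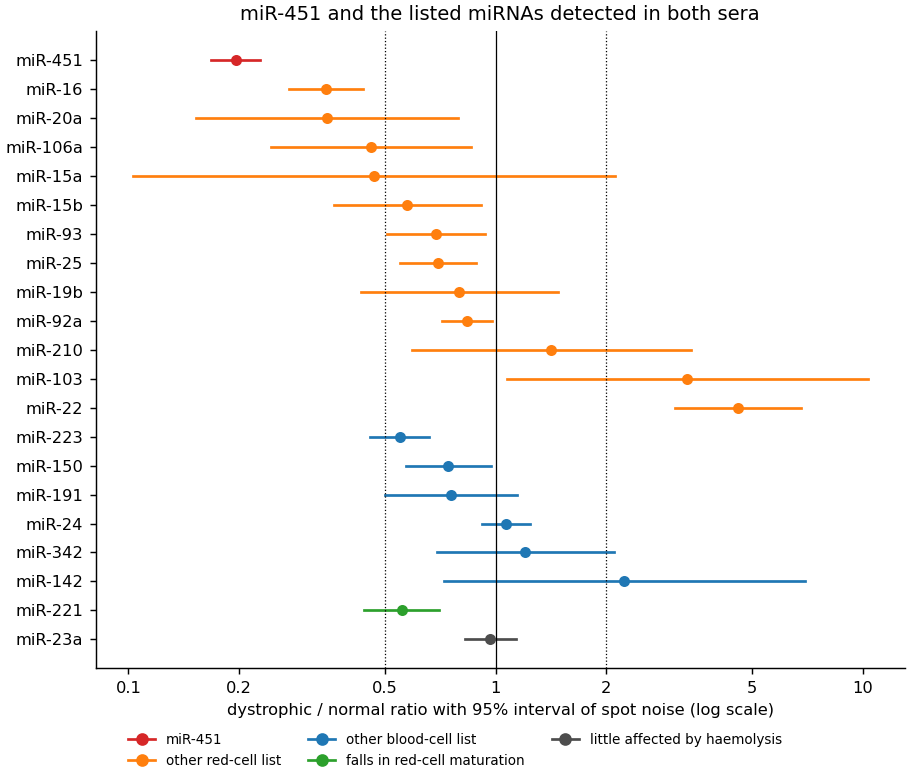
Dystrophic over normal ratio on a log scale with its 95% interval of spot noise, for miR-451, the 12 other red-cell miRNAs, 6 miRNAs of white cells and platelets, miR-221 and miR-23a, each detected in both sera. The interval of miR-451 (0.168 to 0.228) lies left of that of miR-16, and miR-23a sits near 1.

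miR-23a, the usual partner of miR-451 in a check on haemolysis, had a ratio near 1. Its normalized signal was 284 and 275, a ratio of 0.968 (interval 0.827 to 1.13), which was 1.22 without scaling between the arrays. Relative to miR-23a, miR-451 was 4.94-fold lower in dystrophic serum, a comparison that a single scaling factor per array does not shift. On the normal array the miR-23a spot too lay under its local background, at 391 and 431 units. On the dystrophic array it lay above it, at 449 and 255. With local background subtracted, neither miRNA had a positive signal on the normal array, so this comparison could not be formed. The part of haemolysis in the difference of miR-451 was not tested.

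The list of white-cell and platelet miRNAs held 10, of which 6 were detected in both sera and 4 in neither. None of the 6 was at 0.5 or less and 1 was above 2, compared with 5.63% and 13.4% of all 142, and their median ratio was 0.913 compared with 1.09. miR-223, the main myeloid miRNA, had signals of 206 and 113, a ratio of 0.549 (interval 0.456 to 0.660). miR-142, found in blood cells of all kinds, had a ratio of 2.24, with signals of 12.8 and 28.7 and an interval that included 1. miR-126, made in endothelium and platelets, was among the undetected. The summed normalized signal of the 6 was 855 in normal and 782 in dystrophic serum, an order that again rests on the scaling. miR-221, which declines as red cells mature, had signals of 126 and 70.2, a ratio of 0.555 (interval 0.439 to 0.702). Its relative miR-222 was detected in normal serum alone, but its dystrophic spot of 123.8 units lay just under the limit of 124.0. The liver miRNA miR-122 had a ratio of 0.943 at signals of 8.63 and 8.14, close to the limit on both arrays. Its interval ran from 0.123 to 7.24, so a difference in either direction was not detectable.

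The muscle miRNAs miR-133a, miR-133b, miR-133c and miR-206, which leak from damaged fibers, were all above 2, with ratios from 12.6 to 152. Their summed normalized signal was 67.7 in normal and 6596 in dystrophic serum. Dystrophic serum alone had miR-1, normal serum alone had miR-499, and miR-208a and miR-208b were detected in neither. The miR-499 spot read 129.8 units on the normal array, close to the limit of 125.9.

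The size of the miR-451 difference depended on how the arrays were scaled and how background was removed. With local background subtracted it had no ratio and the direction turned. Its ratio was the lowest of all compared under each of the other 15 alternatives. A changed scaling factor multiplies every ratio alike, and leaving out dim miRNAs adds none, so alternatives of these kinds could not alter this rank. The ratio of miR-451 ran from 0.127 with quantile normalization to 0.302 without background subtraction, or from 7.89-fold to 3.31-fold lower. When the arrays were scaled on the 10 bright control probes, miR-451 was 3.88-fold lower. The ratios of these probes before scaling had a median of 0.955 and ran from 0.854 to 2.22. Leaving the members and the other red-cell miRNAs out of the scaling gave 5.03-fold. The number of other red-cell miRNAs at 0.5 or less ran from 0 to 6. It was 0 of 12 without background subtraction, where 1 of all 142 (0.704%) was that low. With quantile normalization it was 6 of 12, and 22 of all 142 (15.5%). The median ratio of the other red-cell miRNAs stayed below 1 in every alternative, from 0.518 to 0.911.

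**Figure D5:**
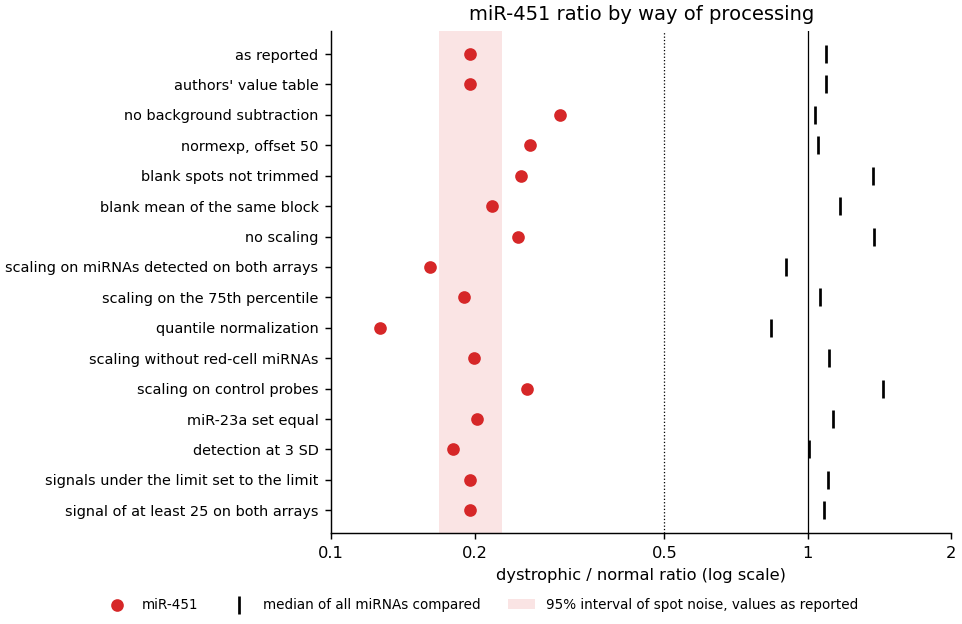
Dystrophic over normal ratio of miR-451 (red points) and median ratio of all miRNAs compared (black bars) on a log scale, for the values as reported and the 15 alternatives that gave a ratio, with the 95% interval of spot noise shaded. Every red point lies under 0.5, from 0.127 to 0.302, while the black bars move between 0.836 and 1.44.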

How the data were processed

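Per the file headers, the deposited scanner files give the median intensity of every spot and of its local background, not normalized, as 1 value per spot with a straight-line fit between 3 scanner gains. The authors also deposited globally normalized intensity values with 1 decimal. They name the 3D-Gene Extraction software, whose version is not given in the sources used here. The normalized signal was computed from the spots by subtracting the trimmed blank mean (5% at each end, rounded up) and bringing the detected dog miRNAs of an array to a median of 25. The limits of above 2 and 0.5 or less follow the study. The 95% interval assumes normal errors on the log scale, with an additive SD of 6.66 and 6.47 units, from the central 95% of the blank spots of the normal and dystrophic array, and a coefficient of variation of 5.26%. Control probes were bright at 5 times the net limit on both arrays. The number of arrays limits the precision, and no p-value was computed.

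The members, lists and alternatives were chosen with earlier results of these data known. By rule, the text named the members, the 5 miRNAs nearest to miR-451 in log2 ratio, miR-23a, the listed miRNAs above 2 or at 0.5 or less and the 3 other red-cell miRNAs brightest on the normal array. The rule's nearest miRNA in sequence was not used here. The remaining named miRNAs were added after their values were seen. Alternatives concerned the source of values, background, scaling, detection and dim signals. Lists were written for white cells and platelets, red-cell maturation (miR-221, miR-222), haemolysis (miR-23a), muscle (8) and liver (miR-122). The steps were tested on simulated data. Changes far above the limit were recovered, and lowered miRNAs near the limit only in part.

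Scripts ran in Python 3.11.15 (numpy 2.4.6, pandas 2.3.3 and matplotlib 3.10.9), and normexp in R 4.3.3 with limma 3.58.1.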

Additional observations from a re-analysis of the deposited data

Results flagged for a closer look

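The local background of the miR-451 spot on the normal array was 1768 units, in a column that the comparison of the sera does not use. The highest local background of a blank spot on that array was 146 units. On the dystrophic array the local background of the same spot was 193 units, and that of the blank spots reached 152. The cause was not tested. Groups of 1 array gave no outlier to look for.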

How the results depend on the processing

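The authors' value table, the blank mean of the same block, the 75th percentile, scaling without red-cell miRNAs, miR-23a set equal, detection at 3 SD, signals set to the limit and a signal of at least 25 left the miR-451 ratio, 0.196, inside its interval. It was 0.302 without background subtraction, 0.262 with normexp and an offset of 50, 0.2502 with untrimmed blank spots, 0.246 without scaling, 0.161 when scaled on the miRNAs that both arrays detected, 0.127 with quantile normalization and 0.258 with the control probes. With local background subtracted the direction turned, at -423 units for normal and 225 for dystrophic serum, and no ratio was obtained. At 0.5 or less were 4 other red-cell miRNAs as reported, 0 without background subtraction and 0 with normexp. They were 2 with each of untrimmed blank spots, no scaling and the control probes. A signal of at least 25 left 7 of them, with 1 at 0.5 or less. Over all miRNAs compared, the count was 8 of 142 as reported, and 1 of 142 without background subtraction and with normexp. It was 3 of 142 without scaling and with the control probes. With untrimmed blank spots it was 3 of 99, and with a signal of at least 25 it was 3 of 71. Those above 2, 2 as reported, were 1 with each of no background subtraction, normexp, local background, untrimmed blank spots and a signal of at least 25. The median ratio of the other red-cell miRNAs ran from 0.518 to 0.911, below that of all miRNAs compared under every alternative. A changed scaling factor alone could not alter that order.

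The median log2 ratio of all miRNAs compared, 0.13, moved by 0.33 without scaling, 0.32 with untrimmed blank spots, 0.40 with the control probes, -0.28 when scaled on the miRNAs that both arrays detected, -0.39 with quantile normalization and -0.12 at 3 SD. The share of called miRNAs that were above 2 was 70.4% as reported, and among the scalings ran from 31.2% with quantile normalization to 93.0% with the control probes. miR-144 was detected on neither array under the alternatives for which detection was computed. The bound of miR-185 was at most 1.80, and none was obtained at 3 SD, with untrimmed blank spots, with local background or with a signal of at least 25.

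Another scanner gain was not run, because 1 value per spot is held. No paired analysis was possible because each group has 1 array, and leaving out a replicate was not possible either. Signal over background limits miR-144 and miR-185.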
